A study of Mus musculus with 12 samples.

Results

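The Cyp3a subfamily of cytochromes P450 was followed in mouse liver across genotype and diet. Its members were the probe sets annotated with exactly 1 gene symbol among Cyp3a11, Cyp3a13, Cyp3a16 and Cyp3a25. These were 4 of the 22690 probe sets of the array, 1 for each gene, or 4 of the 12393 genes with a probe set of their own, and all 4 are accounted for here. The groups were wild-type mice on a control diet, wild-type mice on quercetin, and POR-null mice on each of these diets, with 3 arrays in each group and RNA pooled from 3 mice on every array. Wild type and POR-null were both labelled male, C57BL/6 and 6 to 8 weeks old. All groups were adapted for 14 days to a soya-free powdered RM3 (E) diet, and the quercetin groups then received 7 mg of quercetin per mouse (6.2 g per kg of diet) for 24 h. POR-null mice lack P450 reductase, the flavoprotein that passes electrons from NADPH to microsomal P450s. The labels used here do not give the tissues in which the gene was disrupted, and the level of Por, not analysed here, gave no check of the genotype labels.

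The Cyp3a enzymes are haem proteins of the endoplasmic reticulum that oxidise steroids, bile acids and many drugs, and they depend on P450 reductase for electrons. Transcription of Cyp3a11, the main inducible form of adult mouse liver, is raised by ligands of the pregnane X receptor (PXR, gene Nr1i2), and the constitutive androstane receptor (CAR, gene Nr1i3) shares many of its target genes. Both receptors bind DNA as partners of the retinoid X receptor at pairs of short half-sites. Cyp3a13 and Cyp3a25 are further adult liver forms, and Cyp3a16 is known as a form of fetal and young liver that is low in adult males. Quercetin is a plant flavonol.

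The 250 bases before the start site of each member are shown because receptors that control this family bind at half-sites of the kind marked. The sequences are those of RefSeq on build GRCm38.p6, matched by symbol for 4 of 4 members, and they are written 5′ to 3′ on the minus strand of chromosome 5. Capitals mark AGGTCA or AGTTCA on either strand. The windows are chr5:145879855-145880104 for Cyp3a11, chr5:137921620-137921869 for Cyp3a13, chr5:145469724-145469973 for Cyp3a16 and chr5:146009619-146009868 for Cyp3a25, where the table lists 2 start sites and the first was used.
Cyp3a11: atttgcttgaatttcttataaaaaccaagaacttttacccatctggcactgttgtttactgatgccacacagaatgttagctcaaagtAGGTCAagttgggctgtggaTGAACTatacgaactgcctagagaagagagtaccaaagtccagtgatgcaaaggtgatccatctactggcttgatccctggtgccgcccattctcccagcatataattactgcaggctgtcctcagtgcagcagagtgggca
Cyp3a13: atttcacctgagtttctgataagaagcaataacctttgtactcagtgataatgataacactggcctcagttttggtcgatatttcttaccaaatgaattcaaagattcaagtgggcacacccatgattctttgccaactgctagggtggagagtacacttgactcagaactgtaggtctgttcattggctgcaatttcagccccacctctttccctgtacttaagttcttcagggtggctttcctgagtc
Cyp3a16: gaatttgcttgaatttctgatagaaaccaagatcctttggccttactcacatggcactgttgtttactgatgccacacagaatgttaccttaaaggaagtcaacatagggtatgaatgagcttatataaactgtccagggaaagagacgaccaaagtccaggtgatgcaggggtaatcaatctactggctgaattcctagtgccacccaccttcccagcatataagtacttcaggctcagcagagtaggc
Cyp3a25: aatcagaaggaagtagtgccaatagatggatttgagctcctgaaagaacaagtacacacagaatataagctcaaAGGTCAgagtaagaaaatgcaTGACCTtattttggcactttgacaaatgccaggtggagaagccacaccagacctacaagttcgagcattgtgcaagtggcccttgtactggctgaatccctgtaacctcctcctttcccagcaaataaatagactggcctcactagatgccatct

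The Cyp3a11 window held AGGTCA on the gene's strand at -162 to -157 from the start site, and AGTTCA on the other strand at -142 to -137. The Cyp3a25 window held AGGTCA on its own strand at -176 to -171 and on the other strand at -155 to -150. Neither word occurred in the Cyp3a13 and Cyp3a16 windows. On either strand AGGTCA was found in 14.02% and AGTTCA in 11.84% of the 32851 promoter windows of this length in the table. Exact spaced pairs, AGTTCA repeated after 3 bases or TGAACT followed after 6 bases by AGGTCA, were in 0 of these windows on either strand. A match is a description of letters only, and no match says only that these letters are not in this window. In pairwise alignment the Cyp3a11 and Cyp3a16 windows had 76.6% identical bases, and the other 5 pairs of members had 52.7% to 58% identical bases.

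The deposited values were log2 signals between 2.57 and 14.2, with array medians from 5.93 to 5.99. On the second principal component (12.4% of the variance) wild-type control array 1 lay at 12.12, among the wild-type quercetin arrays (16.91, 8.67 and 8.14). Wild-type control arrays 2 and 3 lay apart from it, at -17.75 and -16.22. The first component (33%) placed POR-null control array 3 closest to the wild-type arrays. Calls of members and shares of calls that turn on these or other arrays are given with and without them. Of 10 listed hepatocyte markers, among them Alb, Ttr and Apoa1, 8 were measured, and their mean log2 signal was 12.55 to 12.77 on every array. Groups were compared with limma, with 1 mean per group over all 12 arrays and Benjamini-Hochberg adjustment over 22626 probe sets, and a call means an adjusted p under 0.05. The tests measure the spread between pools of mice, and in whole liver fewer cells of a type and less RNA per cell cannot be told apart.

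Cyp3a11 was higher in POR-null than in wild-type liver on both diets and differed little between the diets. In wild type its log2 signal was 12.61, 12.74 and 12.77 on the control diet and 12.74, 12.76 and 12.63 on quercetin. In POR-null mice it was 13.17, 13.07 and 12.99 on the control diet and 13.09, 13.06 and 13.07 on quercetin. Every POR-null array lay above every wild-type array, as it did for 1.92% of all probe sets, and within a genotype the arrays of the 2 diets overlapped. Group means were 12.71 ± 0.08 and 12.71 ± 0.07 in wild type, and 13.08 ± 0.09 and 13.07 ± 0.02 in POR-null mice (SD, n = 3 arrays).

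The genotype difference of Cyp3a11 on the control diet was 0.37 ± 0.08 on the log2 scale (SE; limma adjusted p = 0.036). With quercetin it was 0.36 ± 0.08 (limma adjusted p = 0.0237). Averaged over the diets it was 0.37 ± 0.05, or 1.29-fold, with a 95% interval of 0.25 to 0.48 and a limma adjusted p of 0.00129. The averaged call held in each of 12 fits that left out 1 array, with differences of 0.34 to 0.39. The call on the control diet held in 3 of these 12 fits, those without wild-type control array 1, wild-type quercetin array 3 or POR-null control array 3, and the adjusted p was 0.0513 to 0.178 without any one of the other 9. The call on quercetin was lost without any one of the 6 quercetin arrays (limma adjusted p 0.0663 to 0.1).

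Quercetin against the control diet gave a Cyp3a11 difference of 0.005 ± 0.077 in wild type, with a 95% interval of -0.16 to 0.17 (limma adjusted p = 0.992). In POR-null mice it was -0.005 ± 0.077, with an interval of -0.17 to 0.16 (limma adjusted p = 0.993). The difference of these differences was -0.01 ± 0.11, with an interval of -0.24 to 0.22. A change of Cyp3a11 beyond these intervals was not seen in either genotype after 24 h, and smaller changes were not detectable with 3 arrays a group.

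**Figure D1:**
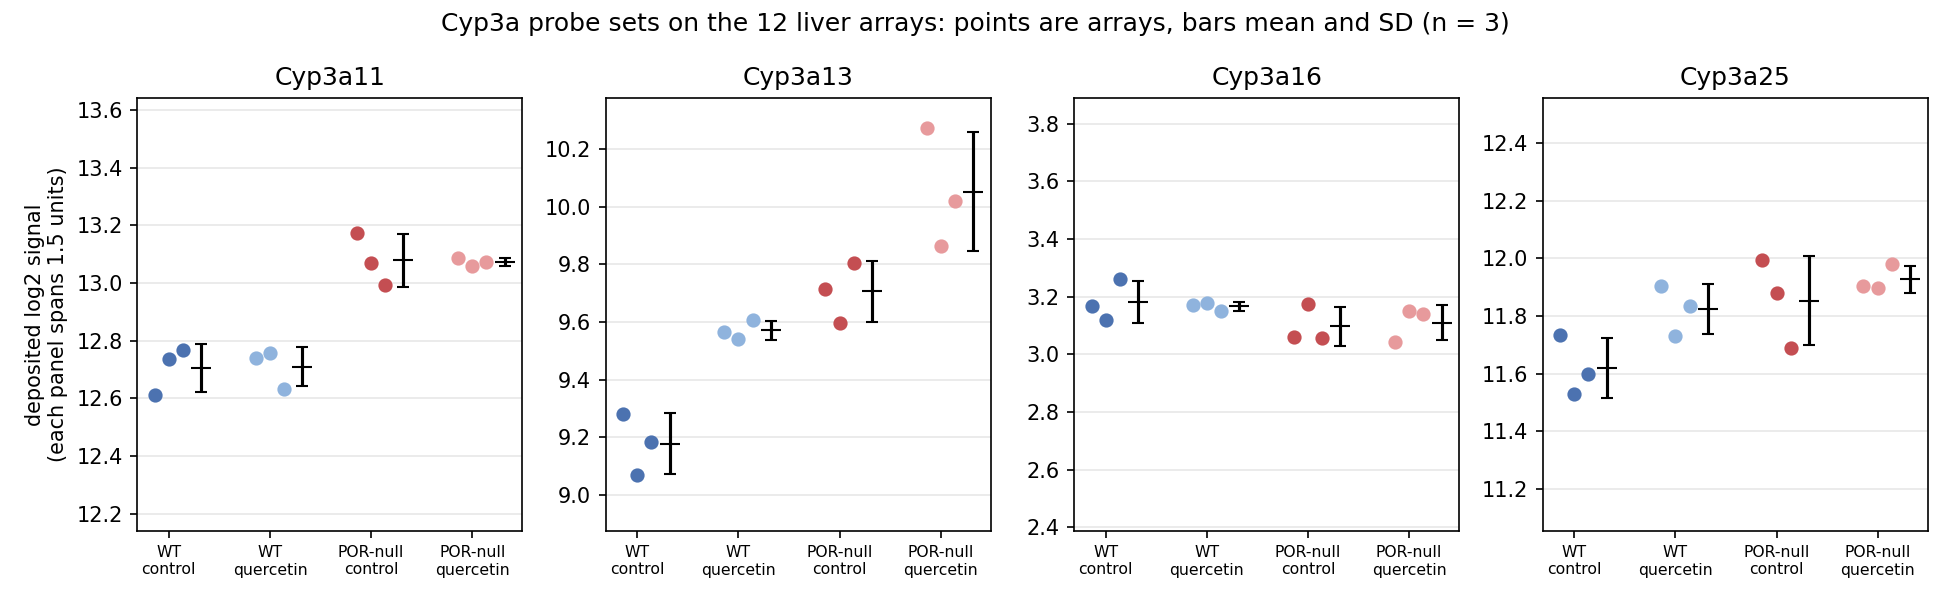
Deposited log2 signal (vertical axis, each panel spanning 1.5 log2 units) of the 4 Cyp3a members in the 4 groups. Points are arrays, bars the group mean and its SD. Cyp3a11 separates by genotype alone (12.71 and 12.71 against 13.08 and 13.07), whereas the Cyp3a13 means are 9.18, 9.57, 9.71 and 10.05.

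Cyp3a13 was the member with the widest range over the arrays, 1.2 log2 units, and its mean was higher both in POR-null mice and on quercetin. In wild type its log2 signal was 9.28, 9.07 and 9.18 on the control diet and 9.57, 9.54 and 9.61 on quercetin. In POR-null mice it was 9.72, 9.60 and 9.81 on the control diet and 10.27, 9.86 and 10.02 on quercetin. Within each genotype every quercetin array lay above every control array, and within each diet every POR-null array lay above every wild-type array. Group means rank as wild-type control (9.18 ± 0.11), wild-type quercetin (9.57 ± 0.03), POR-null control (9.71 ± 0.11) and POR-null quercetin (10.05 ± 0.21; SD, n = 3 arrays). The middle pair overlapped, since the highest wild-type quercetin array (9.61) exceeded the lowest POR-null control array (9.60).

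The genotype difference of Cyp3a13 was 0.53 ± 0.10 on the control diet (limma adjusted p = 0.0285). On quercetin it was 0.48 ± 0.10 (limma adjusted p = 0.0264). Averaged over diets it was 0.50 ± 0.07, or 1.42-fold, with a 95% interval of 0.35 to 0.66 and a limma adjusted p of 0.00123. This averaged call held in each of 12 fits without 1 array, with differences of 0.45 to 0.55. The control-diet call was lost when array 2 or 3 of wild-type controls, or array 1 or 2 of POR-null controls, was left out (limma adjusted p 0.0534 to 0.141). The call on quercetin was lost without any one wild-type quercetin array or without POR-null quercetin array 1 or 3 (limma adjusted p 0.0556 to 0.135).

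The quercetin difference of Cyp3a13 was 0.39 ± 0.10 in wild type, or 1.31-fold, with a 95% interval of 0.17 to 0.61. In POR-null mice it was 0.35 ± 0.10, or 1.27-fold, with an interval of 0.12 to 0.57. Neither passed the test, at limma adjusted p = 0.361 and 0.607. Averaged over the genotypes the difference was 0.37 ± 0.07, with an interval of 0.21 to 0.53, an unadjusted p of 0.000172 that ranked 25 among 22626 probe sets, and a limma adjusted p of 0.156. The adjusted p was 0.0641 to 0.426 over the fits that left out an array, so the averaged difference was not called in any of them. An exact two-sided permutation test of Cyp3a13 alone, exchanging diets within genotypes, gave p = 0.005 unadjusted for the number of genes, the smallest p that its 400 arrangements can give. Because the diets did not overlap within either genotype, the test had to give this p, and it adds nothing to that separation. The quercetin differences of the 2 genotypes differed by -0.05 ± 0.15, with an interval of -0.36 to 0.27 (limma adjusted p = 0.976).

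Cyp3a25, another adult liver form, had higher means in the 3 other groups than in wild-type mice on the control diet, but none of its differences was called. In wild type its log2 signal was 11.73, 11.53 and 11.60 on the control diet and 11.90, 11.73 and 11.83 on quercetin. In POR-null mice it was 11.99, 11.88 and 11.69 on the control diet and 11.90, 11.90 and 11.98 on quercetin. The arrays of the 2 diets overlapped within each genotype, and those of the 2 genotypes overlapped on each diet. The means were 11.62 ± 0.10, 11.82 ± 0.09, 11.85 ± 0.15 and 11.93 ± 0.05 in the same order (SD, n = 3 arrays). The genotype difference was 0.23 ± 0.09 on the control diet (limma adjusted p = 0.227) and 0.10 ± 0.09 on quercetin (limma adjusted p = 0.607). Averaged over diets it was 0.17 ± 0.07, with an interval of 0.03 to 0.31 and a limma adjusted p of 0.13. Without POR-null control array 3 the averaged difference was 0.21 and passed (limma adjusted p = 0.0459). Quercetin gave 0.20 ± 0.09 in wild type (limma adjusted p = 0.57) and 0.07 ± 0.09 in POR-null mice (limma adjusted p = 0.891).

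Cyp3a16, the form of fetal and young liver, gave signals near the lower end of the scale in every group. In wild type its log2 signal was 3.17, 3.12 and 3.26 on the control diet and 3.17, 3.18 and 3.15 on quercetin. In POR-null mice it was 3.06, 3.17 and 3.06 on the control diet and 3.04, 3.15 and 3.14 on quercetin. All groups overlapped, and only 1.1% of probe sets had a lower mean. The genotype difference averaged over diets was -0.07 ± 0.04, with a 95% interval of -0.16 to 0.02 (limma adjusted p = 0.352). Of 13 measured genes of fetal and neonatal liver, 0 were called in the averaged genotype comparison, against 5.08% of all genes called higher and 2.86% lower.

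Counted over the family, 2 of 4 members were higher in POR-null mice on the control diet, against 1.16% of all probe sets called in either direction and 0.822% called higher. On quercetin 2 of 4 were called higher, against 2.33% called and 1.75% called higher. Averaged over diets 2 of 4 were called higher, against 7.58% called and 4.88% called higher. These are Cyp3a11 and Cyp3a13 in each comparison, and the comparisons averaged over diets reuse the same arrays. The calls on the control diet were lost for both genes after quantile normalization (limma adjusted p 0.0766 for Cyp3a11 and 0.0596 for Cyp3a13) and in a fit of the control-diet arrays alone (0.18 and 0.102). After quantile normalization Cyp3a13 also lost its call on quercetin (0.0975).

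The number of probe sets called, against which these counts are read, also moved with single arrays. On the control diet 262 were called, against 756 without wild-type control array 1 and 607 without POR-null control array 3. It was 38 or 67 without wild-type control array 2 or 3, 35 or 62 without POR-null control array 1 or 2, 146 to 207 without any one quercetin array, and 30 in the control-diet groups alone. On quercetin 527 were called, against 199 or 142 without wild-type quercetin array 1 or 2, 127 or 173 without POR-null quercetin array 1 or 2, and 950 in the quercetin groups alone. Averaged over diets 1714 were called, a number that became 991 when POR-null control array 1 was left out, 1095 for wild-type quercetin array 2 and 1111 for POR-null quercetin array 1, and 1157 to 2128 for each of the other arrays.

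No quercetin difference of any member was called in limma, against 0% of probe sets in wild type, in POR-null mice, averaged over genotypes and for the interaction. That background rests on wild-type control array 1, without which 151 probe sets were called for quercetin in wild type and 24 averaged over genotypes, with 0 members among them. Without any other 1 array at most 4 probe sets were called in a quercetin comparison. At an unadjusted p under 0.05, 1942, 1581, 2079 and 1397 of the 22626 probe sets passed in these 4 comparisons (8.58%, 6.99%, 9.19% and 6.17%). Cyp3a13 was among them in the first 3, and Cyp3a25 in the first and the third. Probe sets whose quercetin arrays all lay above the control arrays made up 5.67% in wild type and 6.62% in POR-null mice, and Cyp3a13 was the member in both sets. On each diet 2 of 4 members had every POR-null array above every wild-type array, as did 8.04% of all probe sets on the control diet and 11.9% on quercetin.

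**Figure D2:**
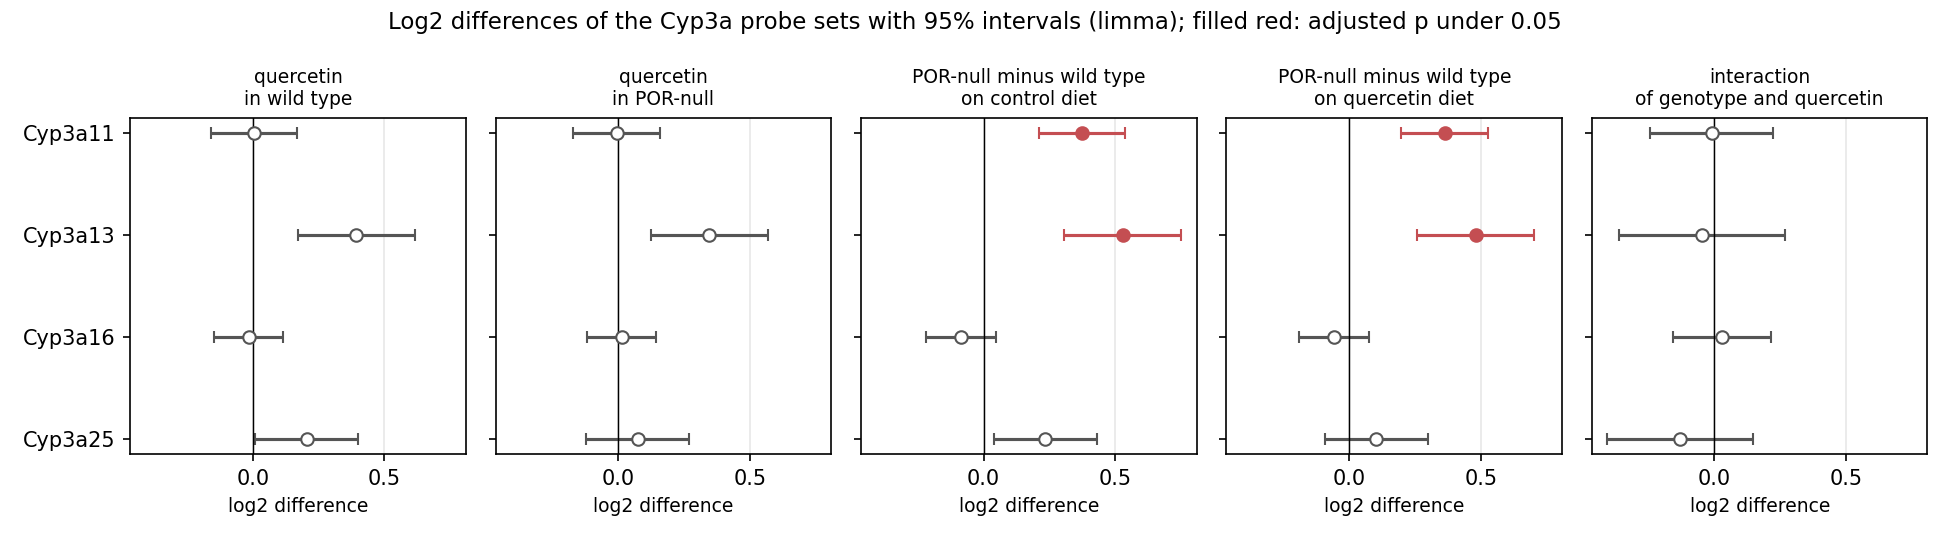
Log2 differences of the 4 members (horizontal axis) in each comparison, with points for the limma estimate and bars for its 95% confidence interval. The genotype intervals of Cyp3a11 and Cyp3a13 lie above 0 on both diets, the quercetin intervals of Cyp3a11 are centred near 0 (0.005 and -0.005), and those of Cyp3a13 run from 0.17 to 0.61 and from 0.12 to 0.57.

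The members were then set against each other within the same arrays, as the difference between their log2 differences, with exact two-sided permutation tests adjusted over 6 comparisons. The quercetin difference of Cyp3a13 exceeded that of Cyp3a11 by 0.37 ± 0.09, with an interval of 0.16 to 0.58 (exact p = 0.01, adjusted 0.03). Averaged over genotypes the Cyp3a11 difference was 0. The value thus restates that of Cyp3a13 alone (0.37), which was not called (limma adjusted p = 0.156). The exact p-values were adjusted over 6 comparisons of members chosen with earlier results known, not over all probe sets. The genotype differences of Cyp3a13 and Cyp3a11 differed by 0.14 ± 0.09, with an interval of -0.08 to 0.35 (exact p = 0.165, adjusted 0.165). The genotype difference of Cyp3a25 was smaller than that of Cyp3a11 by 0.2 log2 units (-0.20 ± 0.07, exact p = 0.02, adjusted 0.04). It was also smaller than that of Cyp3a13 (-0.34 ± 0.09, exact p = 0.005, adjusted 0.03). For quercetin, Cyp3a25 against Cyp3a11 gave 0.14 ± 0.07 (exact p = 0.075, adjusted 0.09), and Cyp3a25 against Cyp3a13 gave -0.23 ± 0.09 (exact p = 0.035, adjusted 0.0525). Cyp3a16, near the lower end of the scale, was left out of these comparisons. Of all probe sets, 99.9% had a lower mean than Cyp3a11, 99.4% than Cyp3a25 and 95.7% than Cyp3a13. Whether probe sets at these levels respond alike to a change in RNA was not tested.

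Across the 12 arrays Cyp3a11 and Cyp3a13 correlated at r = 0.71, and their deviations from the group means at r = -0.25. Cyp3a11 and Cyp3a25 correlated at r = 0.60 and their deviations at r = 0.16. Cyp3a13 and Cyp3a25 correlated at r = 0.74 and their deviations at r = 0.05. Thus arrays of 1 group that were higher for one member were not, as a rule, higher for another. These correlations describe 12 arrays that share 4 groups. The residual SD of the members after moderation was 0.09 for Cyp3a11, 0.13 for Cyp3a13, 0.08 for Cyp3a16 and 0.11 for Cyp3a25, below the median of all probe sets (0.14).

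The receptors of the family came next. Nr1i2, which encodes PXR, had log2 means of 7.89 ± 0.10 and 7.93 ± 0.12 in wild type on the control diet and on quercetin, and 7.99 ± 0.02 and 7.96 ± 0.14 in POR-null mice (SD, n = 3 arrays). Its genotype difference was 0.10 ± 0.10 on the control diet (limma adjusted p = 0.687) and 0.03 on quercetin (limma adjusted p = 0.899). Nr1i3, which encodes CAR, had means of 8.90 ± 0.07 and 8.96 ± 0.25 in wild type and 8.84 ± 0.09 and 9.00 ± 0.12 in POR-null mice. Its genotype difference was -0.06 ± 0.12 on the control diet (limma adjusted p = 0.845) and 0.04 on quercetin (limma adjusted p = 0.901). A call was made for neither receptor under either diet or genotype.

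Of 21 measured receptors and partners of PXR and CAR, 0 were called on the control diet and 0 were called higher in any genotype comparison. Of all genes, 0.92% were called higher and 0.323% lower on the control diet, and 5.08% and 2.86% averaged over diets. Nr0b2, the corepressor SHP, was lower in POR-null mice on quercetin by a log2 difference of -1.35 ± 0.21 (limma adjusted p = 0.00544), from a mean of 7.60 to 6.25. Averaged over diets it was lower by -1.11 ± 0.15 (limma adjusted p = 0.000666). Hnf4a, a nuclear receptor that maintains hepatocyte genes, Cyp3a genes among them, was lower by -0.31 ± 0.07 (limma adjusted p = 0.0167). The median genotype difference of the list averaged over diets was -0.08, against -0.02 for all 12393 genes by main probe set.

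Targets of PXR and CAR outside the Cyp3a family are genes of drug oxidation, conjugation and transport. Averaged over diets 29 of 34 measured targets had a higher mean in POR-null mice, 19 of them called. On the control diet 8 of 34 measured targets rose and 0 fell, against 0.92% of all genes called higher and 0.323% lower, and the median difference was 0.49 against -0.02 for all genes. On quercetin 13 of 34 rose and 0 fell, against 1.86% called higher and 0.629% lower, with a median of 0.54 against -0.03. Averaged over diets the 19 called targets all rose, against 5.08% called higher and 2.86% lower, with a median of 0.5 against -0.02. Cyp2b10, the P450 most used as a readout of CAR, rose by 4.34 ± 0.40 log2 units on the control diet and 4.37 ± 0.40 on quercetin. Sult1e1, an oestrogen sulfotransferase, rose by 2.08 ± 0.35 and 3.29 ± 0.35, and Cd36, a fatty acid transporter, by 1.89 ± 0.23 and 2.27 ± 0.23. Aldh1a7, an aldehyde dehydrogenase, rose by 1.0 ± 0.15 on the control diet, and Slco1a4, an organic anion transporter, by 1.90 ± 0.21 on quercetin.

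Within the 34 targets and 4 members ordered by the averaged genotype difference, Cyp3a13 stood at position 18, Cyp3a11 at 22, Cyp3a25 at 30 and Cyp3a16 at 34 of 38. This order sets probe sets of unlike signal level side by side. The control-diet count of targets was 2 without wild-type control array 2, 5 without wild-type control array 3, 4 when array 1 or 2 of the POR-null controls was left out, 13 for array 3 of that group, and 2 in a fit of the control-diet groups alone. On quercetin it was 8 without wild-type quercetin array 1 or POR-null quercetin array 2. For quercetin itself 0 of 34 targets were called in limma in either genotype. In wild type 15 of 34 lay above 0, against 48.6% of all genes, and in POR-null mice 26 of 34, against 48.4%. Their median quercetin difference was -0.06 in wild type and 0.18 in POR-null mice, against -0.005 for all genes in each genotype. A mean over the targets was taken with each centred on its own mean over all arrays. It spread from -0.006 to 0.645 in POR-null control arrays and from 0.477 to 0.528 in POR-null quercetin arrays.

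**Figure D3:**
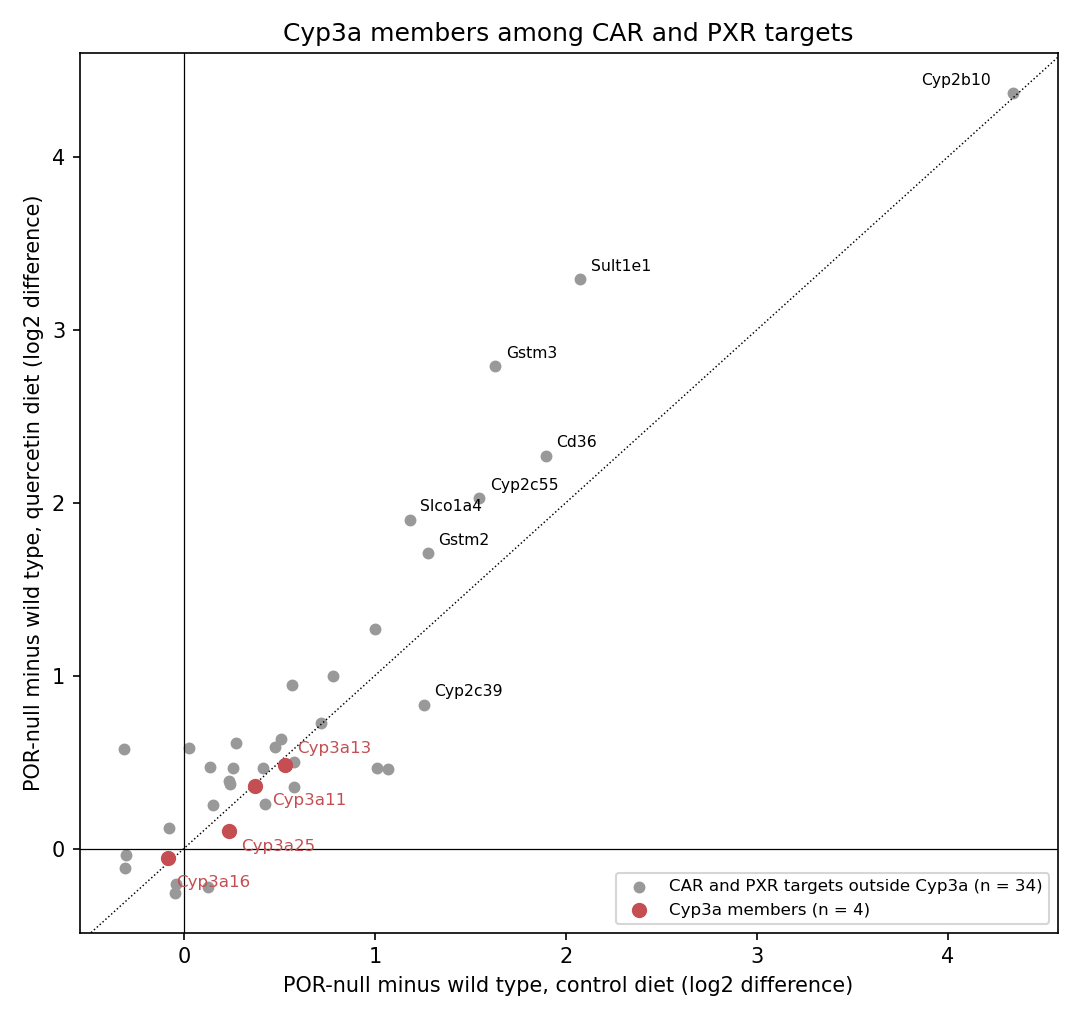
Genotype differences (POR-null minus wild type, log2) on the control diet (horizontal) and on the quercetin diet (vertical) for 34 PXR and CAR targets (grey) and the 4 Cyp3a members (red). The dotted line marks equal differences. Cyp2b10 lies near 4.34 and 4.37, while Cyp3a13 (0.53 and 0.48) and Cyp3a11 (0.37 and 0.36) lie among the targets, at positions 18 and 22 of 38 by the averaged difference.

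Other genes that bear on P450 function were counted in the same fits. Of 18 measured electron donors and haem genes, 0 were called on either diet. Of all genes, 0.92% were called higher and 0.323% lower on the control diet, and 1.86% and 0.629% on quercetin. By the averaged comparison 5.08% of all genes were called higher and 2.86% lower, and averaged over diets 1 rose (Uros, 0.37, a haem synthesis enzyme) and 1 fell (Fech, -0.23, which inserts iron into haem). Of 35 other P450 genes of families 1 to 4, 12 are also in the target list. On the control diet 1 rose (Cyp2b10, a target) and 0 fell, against 0.92% of all genes called higher and 0.323% lower. On quercetin 3 rose and 2 fell, against 1.86% and 0.629%, with Cyp2b10 and Cyp2c55 (2.03 ± 0.44), both targets, among the risers, and Cyp2d26 (-0.65 ± 0.10) and Cyp4v3 (-0.61 ± 0.10) the genes that fell. Averaged over diets 7 rose and 3 fell, against 5.08% and 2.86%, with a median of 0.02. By the same averaged comparison 2 of 4 Cyp3a members rose and 0 fell.

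Markers of liver zones and of other cells were set beside the genotype differences of Cyp3a11 and Cyp3a13. Pericentral hepatocyte markers, of which 14 were measured, had 4 called higher on each diet (Oat, Cyp7a1, Lhpp and Rhbg), against 0.92% of all genes on the control diet and 1.86% on quercetin. The other measured markers, Glul, Cyp2e1, Axin2 and Lgr5 among them, were not called. On the control diet 12 of 14 lay above 0, against 46.1% of all genes, and on quercetin 9 of 14, against 43.7%. A mean over all 14 markers, the 4 called included, was taken with each centred on its own mean over all arrays. It was -0.27 to -0.21 in wild-type control arrays and -0.32 to -0.11 in wild-type quercetin arrays. It was 0.03 to 0.33 in POR-null control arrays and 0.24 to 0.35 in POR-null quercetin arrays. Averaged over diets, where 5.08% of all genes were called higher and 2.86% lower, 2 of 11 periportal markers rose (Sdhaf4 by 0.49 ± 0.09, Aldh1b1 by 0.47 ± 0.11) and 3 fell, Hsd17b6 (-1.40 ± 0.25) and Uroc1 (-0.42 ± 0.09) among them. Of 14 macrophage markers 4 rose and 0 fell (Mpeg1 by 0.90 ± 0.15, Lyz2 by 0.95 ± 0.25, Cd5l by 0.70 ± 0.19, C1qa by 0.39 ± 0.11). The macrophage marker mean was -0.46 to -0.04 in wild-type control arrays, -0.24 to 0.43 in wild-type quercetin arrays, -0.005 to 0.30 in POR-null control arrays and 0.12 to 0.29 in POR-null quercetin arrays. The part of these markers in the Cyp3a differences was not tested.

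The remaining marker lists were counted averaged over diets, where 5.08% of all genes were called higher and 2.86% lower. In lists of this size a count of 0 or 1 cannot be told from these shares. Among 8 hepatocyte markers 1 fell (Hnf4a), among 12 stellate markers 1 rose (Sparc, 0.39), and among 12 intestinal markers 1 rose (Apoa4, 1.49). Of 7 cholangiocyte markers 1 fell (Prom1, -0.38), and of 9 lymphocyte markers 1 fell (Nkg7, -0.36). Of 10 endothelial, 7 blood and 7 exocrine pancreas markers 0 were called. The pancreas marker mean ran from -1.22 to 2.30 over the 12 arrays.

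In RefSeq on GRCm38.p6 the Cyp3a cluster of chromosome 5 holds 10 entries, 8 of them protein-coding, in the order Cyp3a57, Cyp3a16, Cyp3a58-ps, Cyp3a41b, Cyp3a63-ps, Cyp3a41a, Cyp3a44, Cyp3a11, Cyp3a25 and Cyp3a59. Cyp3a13 lies apart from the cluster on the same chromosome, between Por, the gene disrupted in these mice, and the cluster. The labels describe no backcrossing, so loss of POR and any other difference between the wild-type and POR-null stocks, around Por included, cannot be told apart. The neighbours of the members were measured in the same fits. Of the 6 genes nearest to Cyp3a13, 3 on each side, 2 were called lower in POR-null mice averaged over diets, against 2.86% of all genes. These were Zkscan1, a zinc finger gene (-0.41 ± 0.08, limma adjusted p = 0.005), and Pilrb1, an immune receptor gene (-0.25 ± 0.07, limma adjusted p = 0.0385). Pilrb1 was also called lower on quercetin alone (-0.41 ± 0.10, limma adjusted p = 0.0402).

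Zkscan1 thus differed in the opposite direction from Cyp3a13, and its quercetin difference averaged over genotypes was -0.32 ± 0.08 (limma adjusted p = 0.26), also opposite in sign. Of the 6 genes flanking the cluster, 2 were called lower by the averaged genotype comparison, against 2.86% of all genes. They were Cdk8 (-0.35 ± 0.07, limma adjusted p = 0.0114) and Wasf3 (-0.26 ± 0.06, limma adjusted p = 0.0213). Between Por and the cluster 117 genes were measured, and 4 were called higher and 5 lower averaged over diets (7.69%), against 8.34% of the 767 genes of chromosome 5. On the control diet the share was 0.855%, against 0.782% of the chromosome, and on quercetin 2.56% against 2.22%. In the stretch between Por and Cyp3a13, with 44 measured genes, it was 0% on the control diet, 6.82% on quercetin (1 gene higher and 2 lower) and 9.09% averaged over diets.

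**Figure D4:**
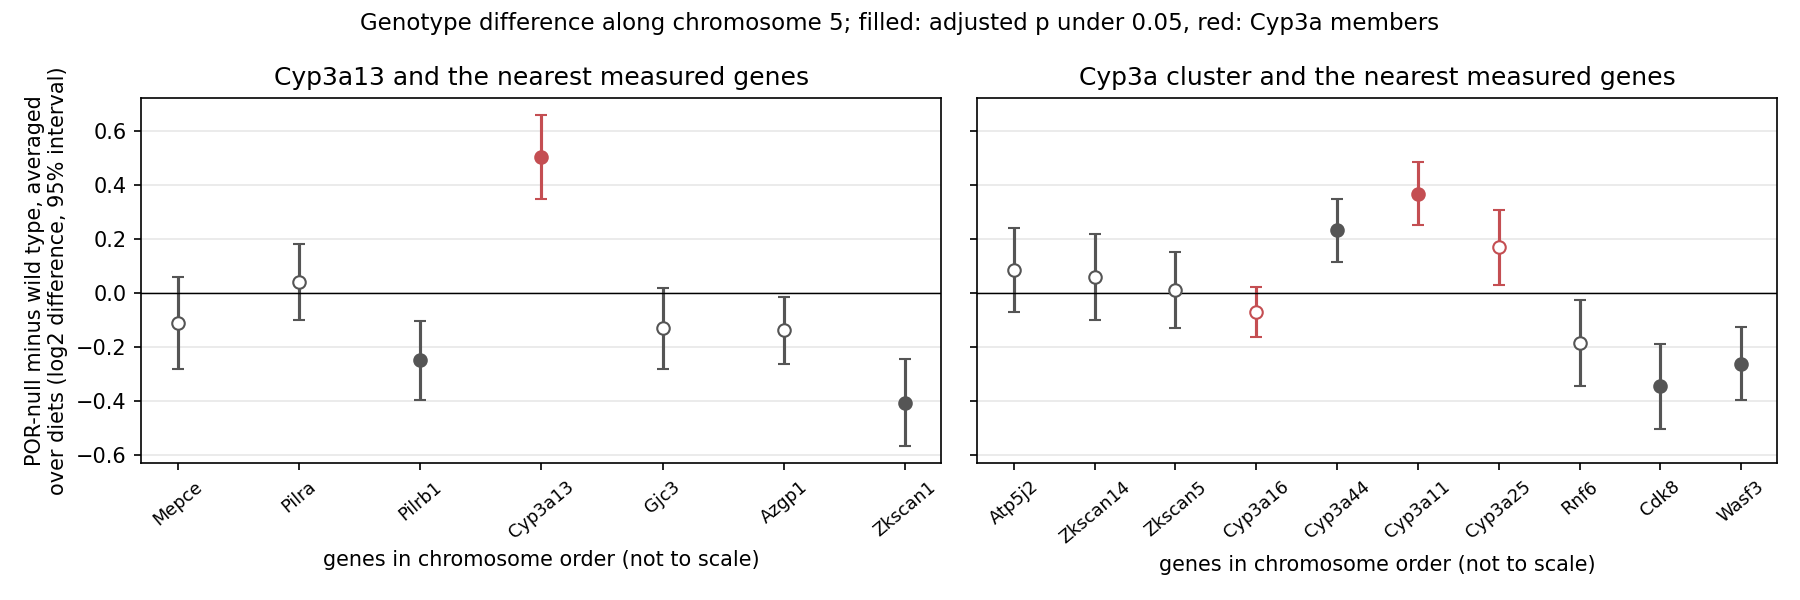
Genotype difference averaged over diets (POR-null minus wild type, log2) of the members and of the 3 measured genes on each side of Cyp3a13 and of the Cyp3a cluster, in chromosomal order. Points are limma estimates (filled where the adjusted p is under 0.05, members in red), bars are 95% confidence intervals, and Cyp3a44 of the cluster is included. Cyp3a11 (0.37) and Cyp3a13 (0.50) lie above 0, and Zkscan1 (-0.41), Pilrb1 (-0.25), Cdk8 (-0.35) and Wasf3 (-0.26) lie below it.

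The genes whose signals were most like each member over the 12 arrays were taken from 7399 genes with a mean above the median. For Cyp3a11 the 5 highest Pearson correlations were those of Cyp2b10 (0.973), Mcfd2 (0.96), Thrsp (0.949), Slco1a4 (0.948) and Gal3st1 (0.946). Their deviations from the group means correlated with those of Cyp3a11 at 0.737, 0.717, 0.48, 0.745 and 0.633. For Cyp3a13 they were Cetn3 (0.951), Coq9 (0.95), Acox2 (0.946), Csnk1a1 (0.944) and Mccc1 (0.941), with deviations at 0.87, 0.691, 0.639, 0.533 and 0.631. No gene was among the 5 of both.

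For Cyp3a25 the most similar genes were Rnf149 (0.958), Eif3e (0.949), Sult5a1 (0.94), Srsf11 (0.94) and Mettl5 (0.94), with deviations at 0.903, 0.918, 0.866, 0.931 and 0.854. For Cyp3a16 they were Sp7 (0.862), Txlnb (0.849), Rhox9 (0.844), Lynx1 (0.842) and Vpreb3 (0.84). Thus 2 genes of the PXR and CAR target list, Cyp2b10 and Slco1a4, were among the 5 nearest to Cyp3a11, and 0 were among those nearest to Cyp3a13, Cyp3a25 or Cyp3a16. How many listed targets are among the 7399 was not counted. Cyp2b10 and Slco1a4 were higher in POR-null mice, as Cyp3a11 was, and a genotype difference alone raises a correlation over the 12 arrays. Shared control of these genes was not tested. The correlations describe 12 arrays of 4 groups, and each list holds the highest values out of 7399.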

How the data were processed

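Affymetrix 430A arrays carried liver RNA, 1 array for each pool of 3 mice and 3 arrays per group, 12 in all. Groups and pool numbers come from the sample titles. The deposited values are log2 signals per probe set, as their range shows. MAS5 and RMA stand in the submitters' processing notes with no version or role, and which of them made the authors' log2 values is not given in the sources used here. The values were tested as deposited, with no further normalization and no pseudocount.

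All groups were fitted with limma 3.58.1 under R 4.3.3 (lmFit and eBayes with an intensity trend, 1 mean per group over all 12 arrays, two-sided). P-values were adjusted by Benjamini-Hochberg over the 22626 probe sets left after 64 AFFX controls, at a threshold of 0.05. The contrasts were quercetin in each genotype, their average and difference, and genotype on each diet and averaged. Single values and differences between members were tested by exact permutation of arrays within strata. The probe set of highest mean stood for each listed gene. The procedure was tested on simulated data.

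The text names all members, the 5 genes most like each by correlation over the 12 arrays, called list genes (chosen from up to 4 per list and contrast with the lowest p), the 3 measured genes on each side of the members' loci, and Nr1i2 and Nr1i3. The members and the 7 pathway and 11 marker lists were chosen with earlier results of these data known, so none is independent support. The pathway lists were receptors and partners, targets, electron donors and haem supply, other P450 genes, male-biased, female-biased and fetal genes. Symbols come from the platform annotation (20380 probe sets with 1 symbol, 691 with several and 1555 with none). Promoter sequences and gene order come from RefSeq tables of GRCm38.p6, read with Python 3.11.15, with windows compared in Biopython 1.88, and figures were drawn with matplotlib 3.10.9. The labels do not state that pool numbers pair the arrays across groups, and the main fit did not take them as a pairing.

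Alternatives were quantile normalization, a filter on the lowest 40% of probe sets by mean, a robust variance prior or one without trend, weights per array, pool number as a block term, fits of the compared groups alone, the mean of a gene's probe sets, exact permutation, and leaving out each array.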

Additional observations from a re-analysis of the deposited data

Results flagged for a closer look

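In the Cyp3a probe sets described here, outside the members, every POR-null control array lay above every wild-type control array, as in 8.04% of all probe sets. A probe set annotated with 2 Cyp3a symbols, which therefore names no single gene, had log2 signals of 3.77, 4.59 and 4.29 for wild type on the control diet, against 5.24, 5.32 and 5.01 for POR-null mice. Only 24.5% of probe sets had a lower mean, and its SD in wild type on the control diet was 0.415 (n = 3 arrays). The genotype difference on the control diet was 0.98 ± 0.16 (SE; limma adjusted p = 0.014). On quercetin it was 0.61 (limma adjusted p = 0.062), and averaged over diets 0.80 ± 0.11 (limma adjusted p = 0.00116).

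Cyp3a44, which lies next to Cyp3a11 in the cluster and is known as a female-biased form, had 3.46, 3.56 and 3.57 for wild type on the control diet, against 3.80, 3.78 and 3.71 for POR-null mice. Only 6.2% of probe sets had a lower mean, so its signal lay near the lower end of the scale, like that of Cyp3a16. The difference was 0.23 ± 0.08 on the control diet and did not pass (limma adjusted p = 0.159). Averaged over diets it was 0.23 ± 0.05 and passed (limma adjusted p = 0.02). Whether 1 probe set also reads near-identical Cyp3a copies was not tested.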

How the results depend on the processing

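The averaged genotype calls of Cyp3a11 and Cyp3a13 held under all 8 alternatives and without any 1 array. Their differences on single diets kept their sign throughout, but the count of members called on the control diet, 2, became 0 after quantile normalization and in the 2 groups alone, and 1 without the variance trend and with a replicate block. On quercetin the count of 2 became 1 after quantile normalization. By unadjusted exact permutation, 1 member passed for quercetin averaged over genotypes and 3 for genotype averaged over diets. Without 1 array the counts were 0 to 2 on each diet and 2 to 3 averaged. With the pool number as a block Cyp3a11 had a limma adjusted p of 0.0559 on the control diet. Correlations of same-numbered arrays' deviations ran from -0.184 to 0.235 over 18 pairs, 5 of them over 0.1. Of 12 arrays, 6 correlated best with an array of their own number. These values do not settle whether the numbers pair the arrays. The main fit used no pairing because the labels state none. The block gave 241, 489 and 1647 calls over the table for the 3 genotype contrasts, against 262, 527 and 1714.

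Quantile normalization reversed the quercetin difference of Cyp3a11 in wild type (-0.064), that of Cyp3a16 averaged over genotypes (0.008) and the interaction of Cyp3a11 (0.058). None of these was called. Leaving out 1 array changed the sign of other uncalled values. For quercetin in wild type Cyp3a11 ran from -0.042 to 0.044 and Cyp3a16 from -0.048 to 0.023. In POR-null mice Cyp3a11 ran from -0.049 to 0.042, Cyp3a16 from -0.007 to 0.052 and Cyp3a25 from -0.009 to 0.144. Averaged, Cyp3a16 ran from -0.017 to 0.018. The interaction ran from -0.053 to 0.037 for Cyp3a11, -0.157 to 0.047 for Cyp3a13 and -0.01 to 0.069 for Cyp3a16. The cause was not tested. Counts of PXR and CAR targets, an alternative chosen after seeing the data, were 2 to 13, 8 to 16 and 15 to 21 for control diet, quercetin and average without 1 array. Cyp3a16 was left out by the filter on low means, the compared groups alone were not fitted for interaction and averages, and a pseudocount did not apply. With 3 arrays a group, the number of arrays limits the precision, and 1 probe set per member leaves its signal without a second reading.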

Other observations

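Cyp3a genes include forms known to be biased to 1 sex, so lists of sex-biased liver genes were counted in these male mice. Of 14 measured male-biased genes, 4 fell and 0 rose in POR-null mice averaged over diets, against 2.86% of all genes called lower and 5.08% higher, with a median log2 difference of -0.67 against -0.02 for all genes. On the control diet 0 were called, and on quercetin 2 fell (Slco1a1 and Gstp1). Those that fell averaged over diets were Slco1a1, an organic anion transporter (-1.33 ± 0.20), Gstp1, a glutathione transferase (-0.72 ± 0.11), Hsd3b2 (-0.69 ± 0.14) and Susd4 (-0.41 ± 0.09). Of 15 measured female-biased genes, 6 rose and 2 fell averaged over diets, with a median of 0.21, and 1 rose on each diet alone (Sult1e1). Cyp3a44, described above with its low signal, is 1 of the 6. Prom1, also counted with the cholangiocyte markers, is 1 of the 2. Sult1e1, which is also in the target list, rose by 2.68 ± 0.25, Cyp17a1, a steroid 17-hydroxylase, by 1.47 ± 0.31 and Rtn4 by 0.67 ± 0.12, and Hamp2, of the hepcidin genes, was lower (-0.95 ± 0.18).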
